A study of Homo sapiens with 6 samples.

Results

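The secreted cytokines IL6, IL11 and LIF of the interleukin-6 family were followed with the receptor genes IL6ST, LIFR and OSMR, the transcription factor gene STAT3 and its feedback inhibitor gene SOCS3. These 8 genes are the rows of the deposited table that carry exactly 1 of those symbols, out of 66381 rows in all and 11260 rows tested, and all 8 passed the filter of at least 1 FPKM (counts scaled to row length and library total) in at least 3 of 6 libraries. The cells were MDA-MB-231, a human triple-negative breast cancer line, and polyadenylated RNA was sequenced. The mimic group had 3 libraries from cells given a mimic, a synthetic double of a microRNA, and the series title names miR-5001-5p. The control group had 3 libraries titled minic_nc, and the labels do not say what those cells received (nc possibly means negative control). Neither oligonucleotide's sequence, dose or time is in the labels, no library is labelled as untransfected, and the labels do not say that the replicates were separate cultures. A gene raised in the mimic cells and a gene lowered in the control cells therefore cannot be told apart, and every difference below is mimic relative to control. The 8 genes were proposed with this comparison already known, so their differences between the groups are given as a description. Counts against the table-wide threshold are printed further on beside their background and support nothing.

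Libraries held 31643826 to 32363456 counts. The line's mesenchymal gene VIM stood at 449 FPKM in control and 553 in mimic, while the epithelial gene CDH1 stood at 0.0472 and 0.0706. Of the 8 mesenchymal line markers 7 passed the filter and SPARC did not, at 0.0954 and 0.0494 FPKM. ERBB2, listed as absent in triple-negative cells, was detected at 4.43 and 4.00 FPKM. Of the markers of other cell types, 4 of 7 leukocyte genes had a row of their own and summed to 0.128 to 0.811 FPKM in control and 0.174 to 0.555 in mimic. The 4 of 5 endothelial genes summed to 0.373 to 0.584 and 0.349 to 0.599, and the 3 of 6 fibroblast genes to 0.298 to 0.37 and 0.198 to 0.389; no gene of these 3 lists passed the filter, and none of those with a row was at 0 in all libraries.

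Cytokines of this family bind a specific receptor subunit and then the shared subunit gp130, the product of IL6ST. IL6 and IL11 signal through pairs of gp130 with their own receptors IL6R and IL11RA, whereas LIF joins gp130 to LIFR and oncostatin M joins it to OSMR or LIFR. Receptor-bound JAK kinases then phosphorylate STAT3, which enters the nucleus and induces SOCS3, an inhibitor that binds gp130 and JAK and ends the signal. In breast cancer cells the pathway is known for autocrine growth and survival signalling, and IL11 for its part in bone metastasis.

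The mature miR-5001-5p is shown because its seed, bases 2 to 8 in capitals, defines the sites a mimic of it would pair with. It is credited to RefSeq on GRCh38.p14 and lies at chr2:232550530-232550553 on the minus strand.
hsa-miR-5001-5p: aGGGCUGGacucagcggcggagcu
The match to this seed, CCAGCCC, occurs in the annotated 3′ UTR of 5 of the 8 genes, namely LIF, IL6ST, STAT3, SOCS3 and LIFR, the last with 2 copies. Of 9062 tested genes with a 3′ UTR, 23.1% hold it, but 7 of the 8 genes have a 3′ UTR longer than the median of 1397 bases. Sites of the first 4 genes are shown with the heptamer in capitals, on GRCh38 and on the minus strand.
LIF, chr22:30243252-30243280: aggggagtggaCCAGCCCccagcaaatta
IL6ST, chr5:55941473-55941501: tccgagtctacCCAGCCCttgttagattc
STAT3, chr17:42313522-42313550: cctccccatccCCAGCCCagccgagggaa
SOCS3, chr17:78357420-78357448: agggcaccaagCCAGCCCacagccaggga
The 5 genes with the seed match had log2 fold changes (mimic minus control) of 0.11 (LIF), 0.51 (IL6ST), 0.60 (STAT3), 0.12 (SOCS3) and 0.31 (LIFR). IL6, IL11 and OSMR, at -0.53, 1.81 and 0.26, have no CCAGCCC in their 3′ UTRs, that of IL6 being 429 bases long. Fold changes of all tested genes with CCAGCCC were not compared, and a part of the seed match in these values was not tested.

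A pair of other heptamers, AGTACAA and GTACAAA, occurs in the 3′ UTR of 4 of the 8 genes, IL11, IL6ST, STAT3 and LIFR. Both were picked by an earlier scan of these same fold changes, so what follows describes the genes and is not independent support for the heptamers. Sites of IL11, IL6ST and LIFR, the last with 2 separate sites, are shown with the heptamer in capitals, on the minus strand of GRCh38.
IL11, chr19:55365604-55365632: cctgggtttttGTACAAAaatgtgagaaa
IL6ST, chr5:55937249-55937277: gtcaatagtttGTACAAActggttagttt
LIFR, chr5:38480946-38480974: ttgtctcagggGTACAAActttgaaaaca
LIFR, chr5:38476291-38476319: ctctaggtggtAGTACAAttttcatttat
The 4 carriers had log2 fold changes of 1.81 (IL11), 0.60 (STAT3), 0.51 (IL6ST) and 0.31 (LIFR), against 0.26 (OSMR), 0.12 (SOCS3), 0.11 (LIF) and -0.53 (IL6) in the 4 genes without them. LIFR and OSMR, next to each other in this order, differed by less than their SE, and without control replicate 1 they stood the other way round, LIFR at 0.26 and OSMR at 0.33. Among tested genes with a 3′ UTR, 17.2% carry AGTACAA or GTACAAA; the median log2 fold change was 0.20 in these 1556 genes and -0.04 in the other 7506, whose median 3′ UTR was shorter, 1171 against 3175 bases. None of 2545 mature human microRNAs in the RefSeq table has a seed at bases 2 to 8 that pairs with AGTACAA or GTACAAA, and 4 have one that pairs with CCAGCCC. MicroRNAs of other species and synthetic control sequences were not searched, so this count does not cover whatever the control cells received.

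**Figure D1:**
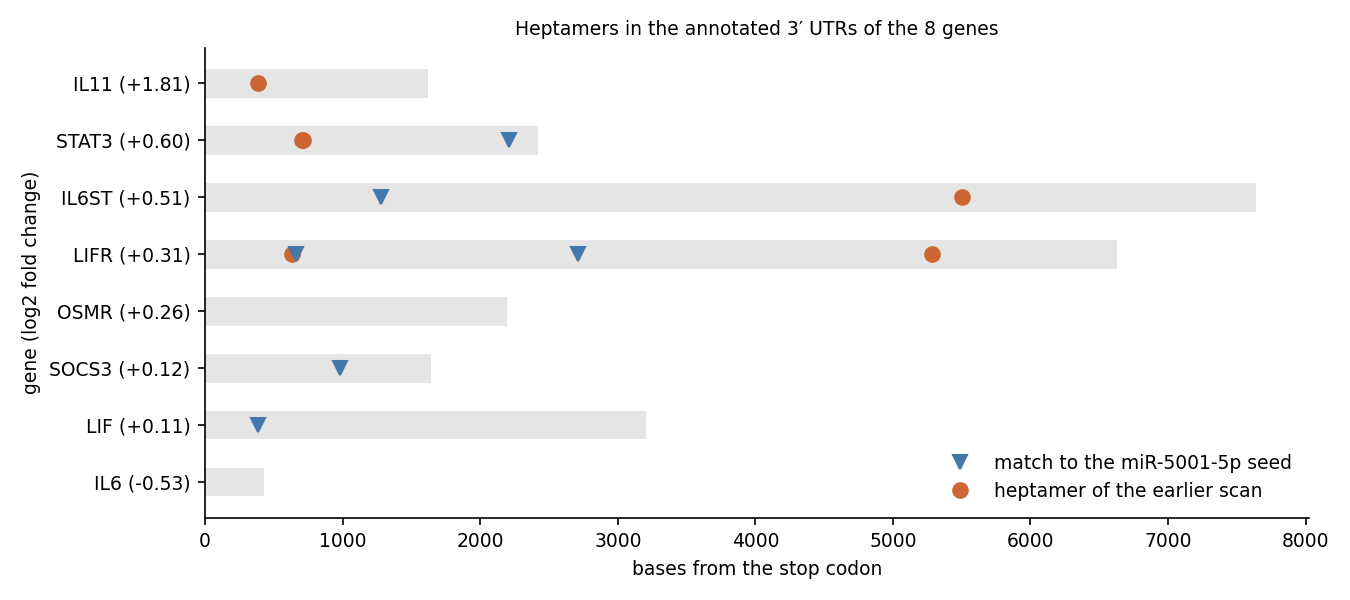
Annotated 3′ UTRs of the 8 genes drawn to scale, in bases from the stop codon, ordered by log2 fold change (mimic minus control). Circles mark AGTACAA or GTACAAA, which sit in IL11, STAT3, IL6ST and LIFR, and triangles mark the match to the miR-5001-5p seed, which is absent from IL11, OSMR and IL6.

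The promoters of IL6 and IL11 are shown because these ligand genes lay on opposite sides of the control. Each window runs from 250 bases before to 50 bases after the RefSeq start on GRCh38.p14. Capitals mark matches on either strand to a degenerate NF-kB motif, to TGACTCA (AP-1) and to TTCNNNGAA (STAT).
IL6, chr7:22726950-22727249, plus strand: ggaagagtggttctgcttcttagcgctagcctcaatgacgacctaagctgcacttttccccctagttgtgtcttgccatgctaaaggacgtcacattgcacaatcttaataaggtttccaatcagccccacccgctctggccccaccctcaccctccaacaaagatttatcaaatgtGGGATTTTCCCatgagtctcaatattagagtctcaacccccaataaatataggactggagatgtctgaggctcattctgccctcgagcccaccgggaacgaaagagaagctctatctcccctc
IL11, chr19:55370414-55370713, minus strand: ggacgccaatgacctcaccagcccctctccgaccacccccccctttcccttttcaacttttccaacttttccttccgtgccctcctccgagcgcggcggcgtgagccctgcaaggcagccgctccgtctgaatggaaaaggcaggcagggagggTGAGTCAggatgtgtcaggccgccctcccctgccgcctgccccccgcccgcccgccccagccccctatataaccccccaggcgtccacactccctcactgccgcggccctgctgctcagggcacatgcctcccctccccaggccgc
IL6 holds a pair of overlapping NF-kB matches, 1 on each strand of the same stretch, which begin at -73 and -72 relative to the start. It holds no AP-1 or STAT match within this window, and bases further upstream were not searched. IL11 holds 1 AP-1 match that begins at -96 and no NF-kB or STAT match. Of 7461 tested genes with a promoter in the table, 31.0% hold the NF-kB motif, 2.84% the AP-1 motif and 6.08% the STAT motif. Of the other genes, LIF is not among these. The NF-kB motif occurs in the windows of IL6ST and OSMR, the STAT motif in that of LIFR, and none of the 3 motifs in those of STAT3 or SOCS3. The SOCS3 window, chr17:78360876-78361175 on the minus strand, lies wholly upstream of the GENCODE gene, which begins at 78360077. The bases next to that start were therefore not searched for SOCS3. The LIFR window, chr5:38595356-38595655 on the minus strand, and the IL6 window lie wholly within their GENCODE genes. Those genes begin further upstream, at 38608354 and 22725884, and the bases next to those starts were not searched either. A match describes these letters and is not evidence of binding.

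IL6 was lower and IL11 higher in the mimic libraries, while the LIF groups overlapped. IL6 encodes interleukin-6, a driver of inflammation and tumour growth, at chr7:22725884-22732002 on the plus strand (GRCh38, as are the other gene positions). It was 93.4, 83.8 and 91.2 FPKM in control replicates 1 to 3 and 60.6, 59.0 and 56.9 in mimic replicates 1 to 3. All mimic libraries lay below all control libraries, with 3790 to 4021 counts against 5574 to 6257. The group means were 89.5 ± 5.03 and 58.8 ± 1.84 FPKM (SD, n = 3 each). IL6 was 1.44-fold lower in mimic, with a log2 fold change of -0.53 ± 0.05 (SE, edgeR fit over all rows).

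IL11 encodes interleukin-11 (chr19:55364389-55370463, minus strand), and its level moved the other way. It was 5.60, 5.23 and 6.70 FPKM in control and 20.7, 16.7 and 21.0 in mimic, from 449 to 566 and 1422 to 1805 counts. The groups were far apart, the lowest mimic library at 16.7 and the highest control library at 6.70 FPKM. The means were 5.84 ± 0.763 and 19.5 ± 2.40 FPKM (SD, n = 3 each), a 3.52-fold difference (log2 1.81 ± 0.13 SE), larger in size than that of 99.9% of tested rows.

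LIF encodes leukemia inhibitory factor (chr22:30240447-30246851, minus strand). Its levels were 73.5, 80.4 and 73.8 FPKM in control and 73.6, 79.5 and 79.9 in mimic. Means were 75.9 ± 3.89 and 77.7 ± 3.52 FPKM (SD, n = 3 each), with a log2 fold change of 0.11 ± 0.06 (SE).

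**Figure D2:**
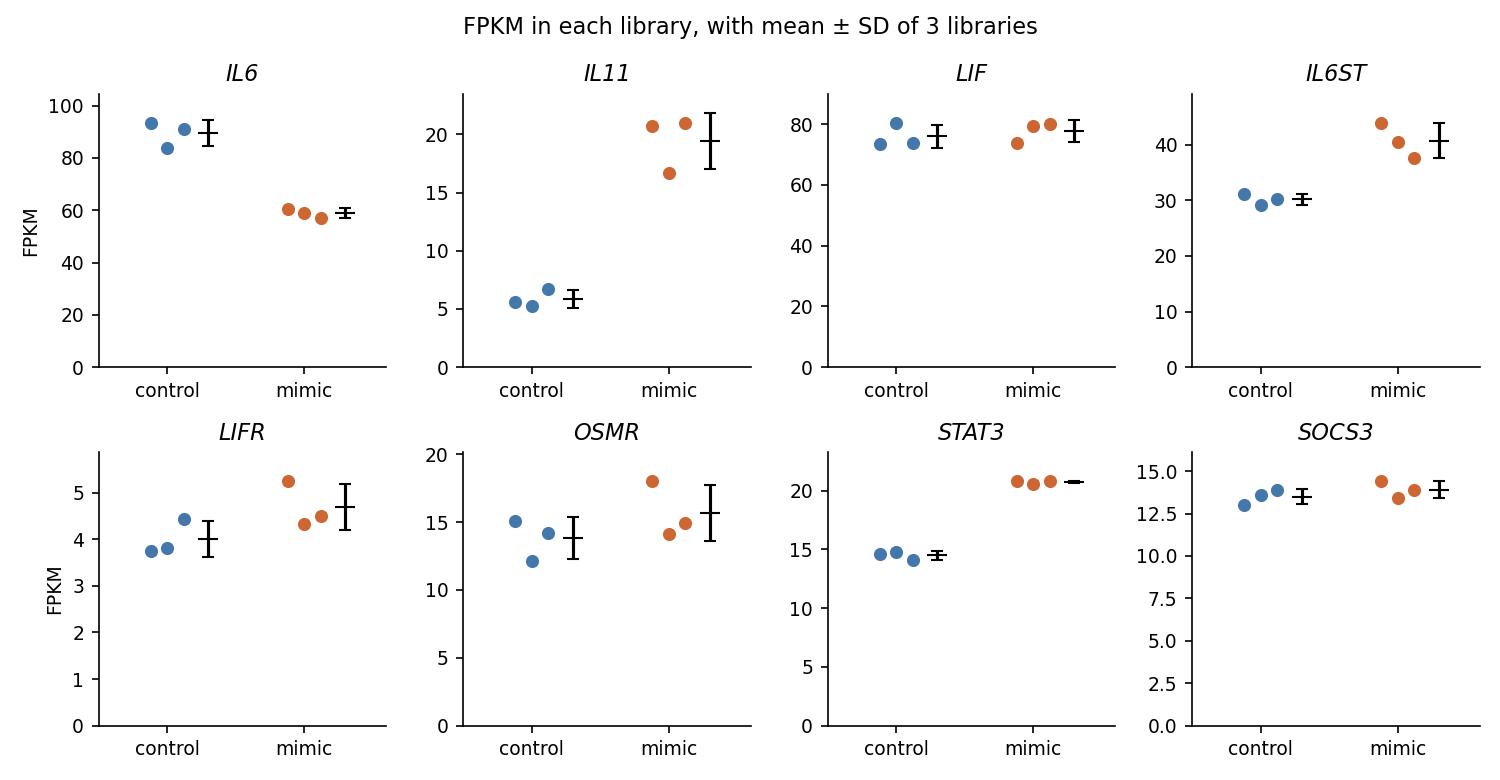
FPKM of each of the 8 genes in every library, 3 control and 3 mimic points a panel, with mean ± SD (n = 3) beside them and axes from 0. The groups are apart in IL6, IL11, IL6ST and STAT3 and overlap in LIF, LIFR, OSMR and SOCS3.

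Within each library, the make-up of the 3 ligand transcripts differed accordingly. IL6 took 54.2, 49.5 and 53.1% of their summed FPKM in control and 39.1, 38.0 and 36.1% in mimic. IL11 took 3.25, 3.09 and 3.90% in control and 13.4, 10.8 and 13.3% in mimic. The IL6 to IL11 ratio of FPKM was 16.7, 16.0 and 13.6 in control and 2.93, 3.53 and 2.71 in mimic, and this ratio does not depend on how libraries are scaled. The summed level changed less, from 169 to 173 FPKM in control to 155 to 158 in mimic.

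**Figure D3:**
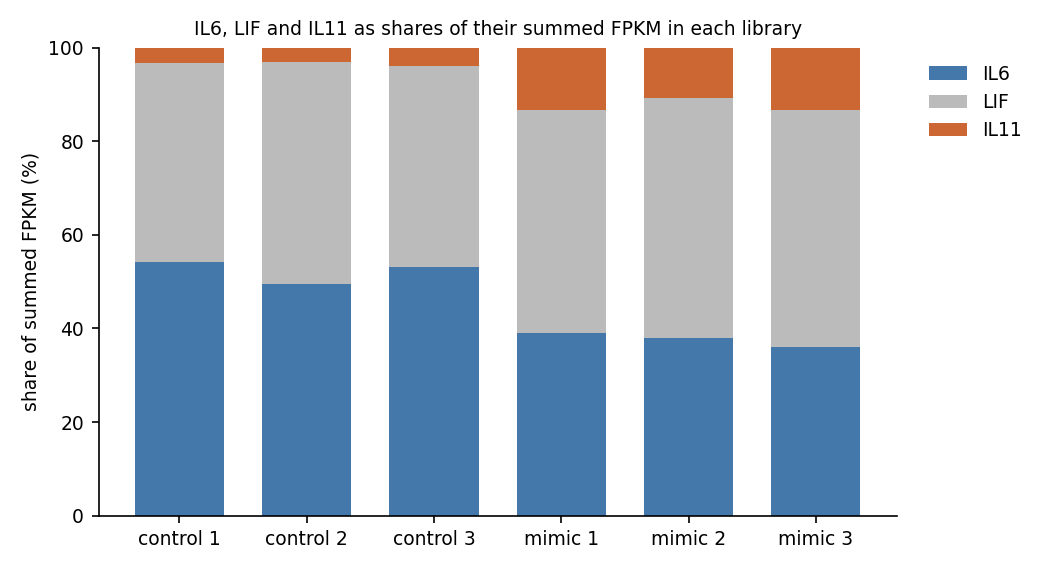
Stacked bars of IL6, LIF and IL11 as shares of their summed FPKM (percent) in each library. IL6 takes 49.5 to 54.2% in the control libraries and 36.1 to 39.1% in the mimic libraries, and IL11 3.09 to 3.90% and 10.8 to 13.4%.

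Of the receptor genes, IL6ST was the one whose groups did not overlap. IL6ST encodes gp130, the subunit that every cytokine here needs (chr5:55935095-55994993, minus strand). It was 31.1, 29.1 and 30.2 FPKM in control and 43.9, 40.5 and 37.6 in mimic. Means were 30.1 ± 1.00 and 40.7 ± 3.16 FPKM (SD, n = 3 each), with a log2 fold change of 0.51 ± 0.06 (SE), 1.42-fold higher in mimic.

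LIFR, the LIF receptor gene (chr5:38474963-38608354, minus strand), was 3.75, 3.81 and 4.44 FPKM in control and 5.24, 4.32 and 4.49 in mimic. Control replicate 3 lay above mimic replicate 2, so the groups overlapped, and the log2 fold change was 0.31 ± 0.10 (SE). OSMR, the oncostatin M receptor gene (chr5:38845858-38945596, plus strand), was 15.1, 12.1 and 14.2 FPKM in control and 18.0, 14.1 and 14.9 in mimic. Its groups overlapped as well, at a log2 fold change of 0.26 ± 0.11 (SE). The IL6ST to LIFR ratio of FPKM was 8.28, 7.63 and 6.80 in control and 8.37, 9.38 and 8.38 in mimic, and the IL6ST to OSMR ratio 2.06, 2.41 and 2.13 against 2.44, 2.88 and 2.53, so gp130 transcripts exceeded both partners in every library.

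STAT3, the transcription factor gene at the end of the pathway (chr17:42313324-42388568, minus strand), was the steadiest of the 8. It was 14.6, 14.8 and 14.1 FPKM in control and 20.8, 20.6 and 20.8 in mimic, where the 3 libraries held 5888, 5795 and 5893 counts. All mimic libraries lay above all control libraries. Means were 14.5 ± 0.356 and 20.7 ± 0.102 FPKM (SD, n = 3 each), 1.51-fold higher in mimic (log2 0.60 ± 0.04 SE). Only 3.31% of the 2716 tested rows within 2-fold of its total count had a smaller within-group SD on the log2 count scale.

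SOCS3, the inhibitor gene that STAT3 induces (chr17:78356778-78360077, minus strand), was 13, 13.6 and 13.9 FPKM in control and 14.4, 13.4 and 13.9 in mimic. The groups overlapped, and the log2 fold change was 0.12 ± 0.07 (SE). The ratio of STAT3 to SOCS3 FPKM was therefore at most 1.13 in every control library and at least 1.45 in every mimic library. RNA levels say nothing of phosphorylated STAT3, which was not measured.

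Counting the genes by the table-wide edgeR threshold (Benjamini-Hochberg adjusted p under 0.05), 3 of the 8 were higher in mimic and 1 was lower, where 13.6% of all tested rows were called higher and 8.63% lower, 22.3% in all. In 4 of the 8 the FPKM of the groups did not overlap, against 45.9% of all tested rows. DESeq2 called LIFR higher as well, which gave 4 higher and 1 lower of the 8. Over all 11260 tested rows DESeq2 called 1779 higher and 1285 lower. Since the genes were proposed from this comparison, these counts are read no further. The median log2 fold change was 0.29 over the 8 genes and -0.014 over all tested rows. With libraries scaled to their totals in place of TMM factors, the calls among all rows turned from 1534 higher and 972 lower to 1136 and 1783.

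Levels between genes were compared in FPKM, which is per length. In control the order of mean FPKM ran from IL6 (89.5) through LIF (75.9), IL6ST (30.1), STAT3 (14.5), OSMR (13.8), SOCS3 (13.5) and IL11 (5.84) to LIFR (4.00). In mimic it ran from LIF (77.7) through IL6 (58.8), IL6ST (40.7), STAT3 (20.7), IL11 (19.5), OSMR (15.6) and SOCS3 (13.9) to LIFR (4.69). IL6 exceeded LIF in 3 of 3 control libraries and in 0 of 3 mimic libraries, and IL11 stood below SOCS3 in control and above it in mimic. The neighbours STAT3 and OSMR, and OSMR and SOCS3, changed order among the control libraries, and STAT3 and IL11 among the mimic libraries.

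Over all 6 libraries, 7 neighbour pairs were tested with a two-sided exact sign-flip permutation test of the within-library log2 difference. IL6 over IL6ST, IL6ST over STAT3 and IL11 over LIFR each held in 6 of 6 libraries at an exact p = 0.0312, the smallest 6 libraries allow, with an adjusted p of 0.0729. None of the 7 pairs passed after Benjamini-Hochberg adjustment, although 3 had an unadjusted p under 0.05. These 3 sat at the smallest p that 6 libraries allow, so the adjusted result does not show that their order is unsure. The steadiest step was IL6ST over STAT3, 2.02-fold, with a log2 difference of 1.01 ± 0.09 (SD, n = 6). The row lengths behind FPKM equal the GENCODE 29 exon length in 6 of the 8 genes and differ in OSMR, 7177 against 7174 bases, and in LIF, an assembled row of 4680 bases against 3969. At the GENCODE length LIF would stand at 89.5 FPKM in control, level with IL6, and at 91.6 in mimic.

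Reads of overlapping genes on the opposite strand could not be told apart, since no source used here gives the strandedness. The antisense gene AC073072.1 overlaps IL6 and held 251 to 376 counts across control and 202 to 239 across mimic libraries, lower in mimic as IL6 was; its part in the IL6 value was not tested. RICTOR overlaps OSMR and held 4407 to 5326 counts in control and 5124 to 5770 in mimic, more than OSMR's own 2788 to 4137 counts, and its part in the OSMR value was not tested either. The rows LIF-AS1, LIFR-AS1 and AC004264.1 held at most 93 counts in any library.

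Around these 8 genes, 9 lists of pathway genes from general knowledge held 81 other tested genes with a row of their own. Of these 21 were higher and 7 lower (edgeR, adjusted p under 0.05), 25.9% and 8.64%, beside 13.6% and 8.63% of all tested rows, against which the counts of each list below are also to be read, with a median log2 fold change of 0.15 against -0.014 over all tested rows. With libraries scaled to totals the split was 16 higher and 10 lower. The lower count fell to 4 without control replicate 1, 3 without control replicate 2, 3 without control replicate 3, 4 without mimic replicate 2 and 4 without mimic replicate 3.

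The remaining ligands and receptors of the family were few or low. The only other ligand past the filter in a row of its own was CTF1, cardiotrophin-1 (log2 -0.31 ± 0.18 SE, edgeR adjusted p = 0.257). Oncostatin M, the ligand of OSMR, had 5 counts in mimic replicate 3 and 0 in the other 5 libraries, where a count of 0 allows up to 3 counts. EBI3 (14 to 44 counts) was below the filter as well. CLCF1 and CNTF shared rows with neighbouring genes (AP003419.1/CLCF1/POLD4, log2 0.07 ± 0.09 SE, and ZFP91-CNTF/CNTF/ZFP91, log2 -0.52 ± 0.40 SE). Of 3 other receptor genes 1 passed upward, IL27RA (log2 0.61 ± 0.16 SE, edgeR adjusted p = 0.0392), and 0 downward. Its call ended without control replicates 1 or 2 or mimic replicates 1 or 3 (adjusted p up to 0.116, log2 at least 0.52), with libraries scaled to totals (adjusted p = 0.0537) and in limma on log2(FPKM + 1) (adjusted p = 0.0548, log2 0.44). IL6R, the specific IL6 receptor gene, was low and uneven, at 106, 421 and 516 counts (control) and 429, 415 and 413 (mimic) (log2 0.34 ± 0.49 SE). Whether the IL6R row holds all reads of its gene in every library was not tested. IL11RA was counted only together with GALT (log2 -0.24 ± 0.10 SE, adjusted p = 0.125).

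Of 8 other JAK and STAT genes 1 rose and 1 fell. JAK1, the main kinase bound to gp130, rose from 26.0 ± 1.11 to 35.2 ± 2.00 FPKM (SD, n = 3 each; log2 0.51 ± 0.06 SE, edgeR adjusted p = 0.00126). STAT2, a factor of interferon signalling, fell (log2 -0.32 ± 0.08 SE, adjusted p = 0.0292), but not without control replicates 2 or 3 or mimic replicates 2 or 3 (adjusted p up to 0.0856, log2 -0.35 to -0.25 over all 6 left-out fits). JAK2 and TYK2 had log2 fold changes of 0.15 and -0.08 and did not pass.

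Of 11 other inhibitors of JAK and STAT signalling 3 rose and 1 fell. PTPN1, a phosphatase that acts on JAK2 and TYK2, rose from 33.1 ± 0.836 to 45.8 ± 0.659 FPKM (SD, n = 3 each; log2 0.54 ± 0.04 SE, edgeR adjusted p = 0.00029). PTPRE, a receptor-type phosphatase gene, rose (log2 0.56 ± 0.09 SE), as did SH2B3, which encodes the adaptor LNK (log2 0.95 ± 0.21 SE, adjusted p = 0.0187). The SH2B3 call ended without control replicates 1, 2 or 3 (adjusted p up to 0.0645, log2 0.67 to 1.11 over all 6 left-out fits). PIAS4, a SUMO ligase of the family that binds activated STATs, fell from 13.6 ± 0.402 to 7.01 ± 0.260 FPKM (SD, n = 3 each; log2 -0.87 ± 0.07 SE, adjusted p = 0.000312). SOCS1, which like SOCS3 blocks JAK kinases, had 0 to 6 counts a library and was below the filter.

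The arm from gp130 to RAS held 4 higher and 2 lower of 9 tested genes. NRAS, which encodes a RAS GTPase, rose from 29.6 ± 0.409 to 92.0 ± 4.46 FPKM (SD, n = 3 each; log2 1.71 ± 0.05 SE, edgeR adjusted p = 1.14e-05). PTPN11, which encodes the gp130-bound phosphatase SHP2 (log2 0.18 ± 0.04 SE, adjusted p = 0.0252), and the RAS exchange factor gene SOS2 (log2 0.28 ± 0.07 SE, adjusted p = 0.0263) also passed. PTPN11 lost its call in every fit without 1 library except that without mimic replicate 3 (adjusted p up to 0.0917, log2 at least 0.15). SOS2 lost it without control replicates 1 or 2 or mimic replicates 1 or 2 (adjusted p up to 0.0859, log2 at least 0.24). Both also lost it with libraries scaled to totals, PTPN11 at log2 0.10 and SOS2 at log2 0.20, and in limma. The lower pair, named after their values were seen, was GAB1, an adaptor of SHP2 (log2 -0.38 ± 0.10 SE), and SOS1 (log2 -0.24 ± 0.06 SE). GAB1 lost its call without any 1 of the 6 libraries (adjusted p up to 0.129, log2 at most -0.33) and in limma on log2(FPKM + 1) (log2 -0.24, adjusted p = 0.0553). SOS1 lost its call in every fit without 1 library except that without mimic replicate 1 (adjusted p up to 0.0968, log2 at most -0.20). It kept the call in limma on log2(FPKM + 1) (log2 -0.26, adjusted p = 0.0272).

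Of 19 tested STAT3 target genes 4 rose and 1 fell. MCL1, a survival gene of the BCL2 family, rose from 89.8 ± 4.43 to 134 ± 12.5 FPKM (SD, n = 3 each; log2 0.66 ± 0.08 SE, edgeR adjusted p = 0.00162). The kinase gene PIM3 (log2 0.64 ± 0.10 SE, adjusted p = 0.00561), the angiogenic factor gene VEGFA (log2 0.35 ± 0.07 SE, adjusted p = 0.012) and CXCL8 (log2 1.84) rose too. The lower member was CEBPD, below. JUNB and PIM1, early targets of STAT3, had log2 fold changes of 0.02 and 0.18 and did not pass, nor did BCL3 (log2 -0.33, adjusted p = 0.0707). MYC, CCND1 and BCL2L1 varied widely within both groups; for example, control libraries held 344, 4279 and 361 MYC counts and mimic libraries 3409, 3254 and 348. Whether these rows hold all reads of their genes in every library was not tested, so the counts are not read as gene levels. HIF1A was counted only in the row SNAPC1/HIF1A/AL137129.1, which was higher in mimic (log2 0.68 ± 0.07 SE). The acute-phase genes CRP, HP, FGB and SERPINA3, which STAT3 drives in liver, had at most 8 counts in any library.

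Of 13 genes that act on the stability of mRNAs such as IL6, 5 rose and 1 fell. RC3H1 and RC3H2, which encode the roquin proteins that degrade IL6 mRNA, rose from 3.94 ± 0.137 to 4.94 ± 0.0313 and from 7.47 ± 0.253 to 10.4 ± 0.724 FPKM (SD, n = 3 each; log2 0.40 ± 0.06 and 0.55 ± 0.06 SE, edgeR adjusted p = 0.00377 and 0.00159). ZFP36L2, a binder of AU-rich elements, rose from 4.61 ± 0.211 to 10.0 ± 1.30 FPKM (log2 1.20 ± 0.11 SE, adjusted p = 0.000619). ZFP36L1 (log2 0.28) and the deadenylase gene CNOT7 (log2 0.21) also passed and were named after their values were seen; CNOT7 lost its call in every fit without 1 library except that without mimic replicate 3 (adjusted p up to 0.0969, log2 at least 0.18), with libraries scaled to totals (log2 0.13, adjusted p = 0.128) and in limma on log2(FPKM + 1) (log2 0.12, adjusted p = 0.155). HNRNPD, another binder of AU-rich elements, fell (log2 -0.42 ± 0.07 SE, adjusted p = 0.00855). ZC3H12A, the regnase-1 gene, and ARID5A, which stabilises IL6 mRNA, did not pass, at log2 0.07 ± 0.10 and 0.12 ± 0.13 (SE). The pentamer ATTTA, the core of AU-rich elements, occurs 6 times in the 3′ UTR of IL6 and 9 times in that of IL11, or 14.0 and 5.56 per 1000 bases, against a median of 1.80 over tested genes. LIFR (4.37), OSMR (3.64), IL6ST (3.40), SOCS3 (2.44) and LIF (2.18) also exceeded that median, and STAT3 (1.65) did not.

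Of 13 factors known to act at the IL6 promoter 3 rose and 2 fell. JUN rose from 50.4 ± 1.30 to 74.5 ± 2.26 FPKM (SD, n = 3 each; log2 0.64 ± 0.04 SE, edgeR adjusted p = 0.000169) and EGR1 rose at log2 1.26, while SRF fell at log2 -0.54. CEBPD, a C/EBP factor gene of the IL6 response, fell from 3.49 ± 0.206 to 2.18 ± 0.284 FPKM (log2 -0.60 ± 0.14 SE, adjusted p = 0.0252); its call ended in every fit without 1 library but that without mimic replicate 2 (adjusted p up to 0.0832, log2 at most -0.49). The third higher gene, named after its values were seen, was CREB1 (log2 0.84 ± 0.23 SE). It lost its call without control replicates 1 or 3 or mimic replicates 1 or 3 (adjusted p up to 0.12, log2 at least 0.71). With all 6 libraries, CREB1 also lost it with scaling to totals (log2 0.76, adjusted p = 0.0512) and in limma on log2(FPKM + 1) (log2 0.60, adjusted p = 0.0663). NFKB1, RELA and CEBPB did not pass, at log2 -0.14 ± 0.07, -0.34 ± 0.26 and 0.13 ± 0.10 (SE). RELA was uneven in control, at 1805, 3644 and 1987 counts, against 2092, 1707 and 1757 in mimic, and whether its row holds all reads of the gene was not tested. Of 7 genes of receptor shedding and traffic 0 passed in edgeR, 0 had an unadjusted p under 0.05, and 0 passed in DESeq2 or in limma, the smallest p belonging to STUB1 and ADAM10 (log2 0.16 ± 0.07 and 0.16 ± 0.08 SE, adjusted p = 0.141 and 0.182).

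**Figure D4:**
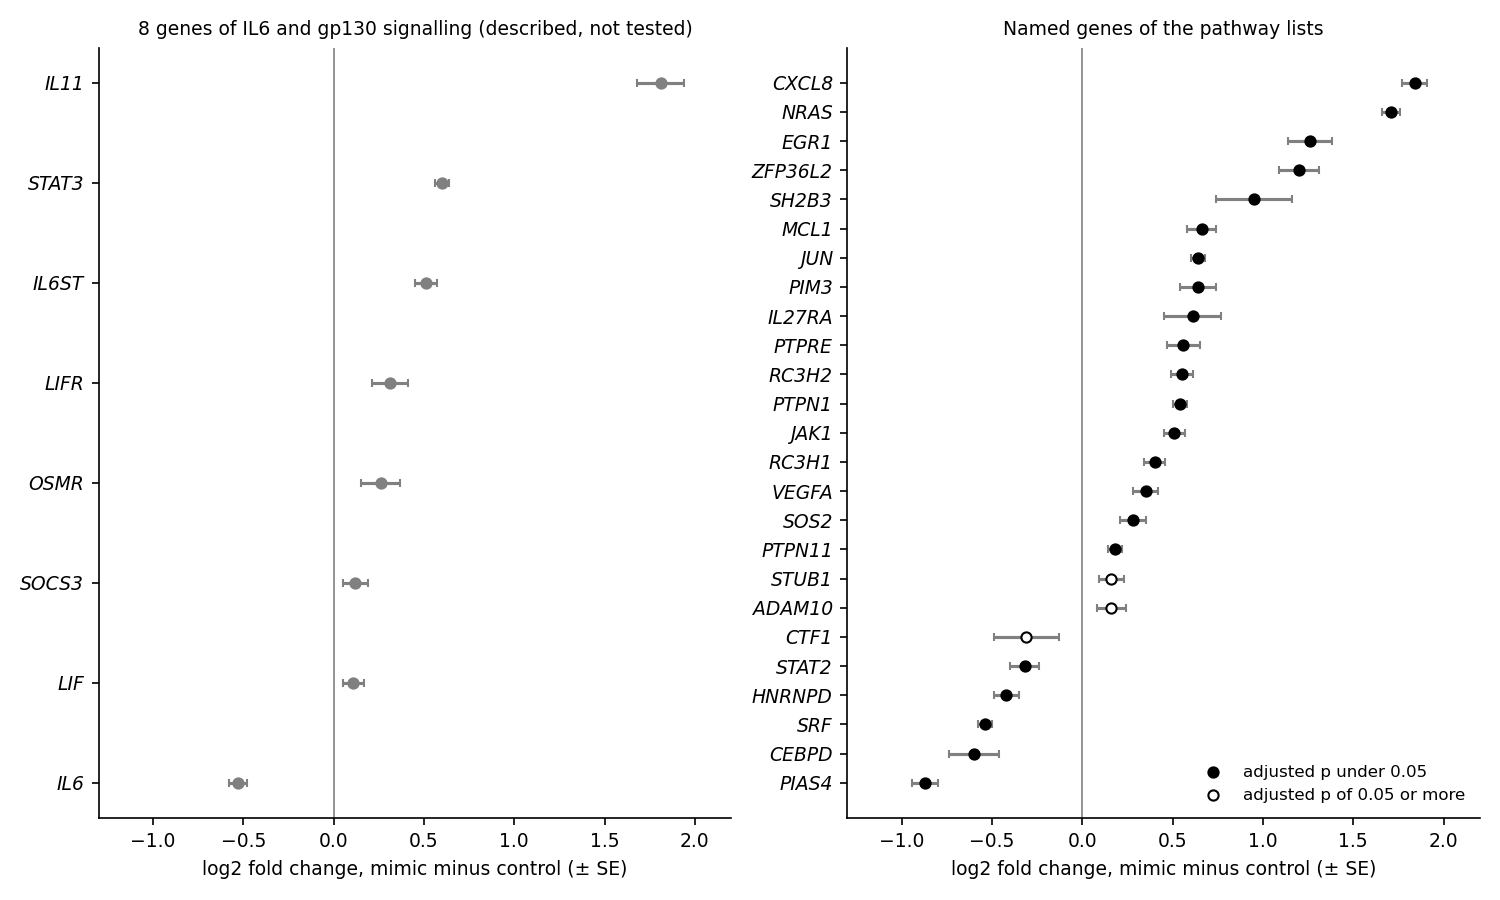
Log2 fold change (mimic minus control, ± SE) of the 8 genes on the left, drawn without a test, and of named genes of the pathway lists on the right, with filled points for an edgeR adjusted p under 0.05. IL11 at 1.81 stands apart on the left and IL6 at -0.53 is the only one of the 8 below 0; PIAS4 at -0.87 is the lowest on the right.

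The genes outside the lists whose log2 counts ran most like a ligand's over the 6 libraries were TMEM242, RPS6KC1 and FAM168A for IL6 (Pearson r of 0.9981, 0.9972 and 0.9962), GLUL, PLXNA2 and UBE2E2 for IL11 (0.9985, 0.998 and 0.9979) and BCL9, MAD2L1 and NUCB1 for LIF (0.9928, 0.9848 and 0.9822). These are 6 libraries in 2 groups, which stand apart in IL6 and IL11 and overlap in LIF, and 321 rows reached r above 0.95 with IL6, 630 with IL11 and 24 with LIF.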

How the data were processed

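Polyadenylated RNA of 6 libraries was measured, 3 mimic and 3 control, per the labels. The submitters' processing notes name cutadapt 1.9, FastQC and the build GRCh38 (hg38). The aligner, counting tool, annotation release and strandedness are not given in sources used here. The deposited table holds raw counts and FPKM, per the file headers, and FPKM equal the count over a whole row length and the library total. The 38792 assembled loci that name no gene (2.46 to 2.70% of counts) were left out; 1248 rows naming several genes were tested where they passed the filter but kept out of lists. The test was edgeR 4.0.16 (quasi-likelihood, TMM, R 4.3.3) on the 11260 rows that reached 1 FPKM in 3 or more libraries, with Benjamini-Hochberg adjusted p over all rows. SE is the log2 fold change over the square root of F. The test was checked on simulated counts. No 2 replicates were duplicates: their counts gave a chi-square of 26.9 or more per degree of freedom. Where the labels show no separate cultures, p-values measure only the spread between these libraries.

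The 8 genes, the lists and the motifs were chosen with earlier results of these data known; ATTTA was added after their values were seen. Genes named from a list are up to 4 that passed with the smallest p, or the 2 with the smallest p where none passed. 3′ UTRs are the longest of GENCODE 29 basic protein-coding transcripts. Alternatives were other scalings, DESeq2 1.42.0, limma 3.58.1 on log2(FPKM + 1) and log2(FPKM + 0.1), other filters, the replicate number as a block and each library left out. Python 3.11.15, pandas 2.3.3, scipy 1.17.1 and matplotlib 3.10.9 were used. Some list genes and 1 sequence are not reported here.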

Additional observations from a re-analysis of the deposited data

How the results depend on the processing

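The log2 fold changes of the 8 genes kept their sign under every alternative run. IL6 stayed between -0.61 and -0.50, IL11 between 1.58 and 1.92, IL6ST between 0.42 and 0.56 and STAT3 between 0.49 and 0.61. LIF ranged from 0.03 to 0.16, SOCS3 from 0.04 to 0.14, LIFR from 0.18 to 0.39 and OSMR from 0.16 to 0.33. Over all tested rows the lower count rose from 972 to 1783 with libraries scaled to totals, to 1707 in limma on log2(FPKM + 1) and to 1680 with a pseudocount of 0.1; TMM raises the median log2 fold change of all rows from -0.092 to -0.014. Leaving out 1 library gave 1576 to 2222 changed rows, 1073 to 1368 higher, 503 to 854 lower, and 19 to 24 changed pathway genes in place of 28. Same-numbered libraries of the groups did not deviate together (r = -0.0081, 0.047 and -0.058), and control replicate 1 correlated best with mimic replicate 3 (0.071). With the replicate number as a block 1922 rows and 23 pathway genes were called, and PTPN11, GAB1, SOS1, SOS2, CEBPD, CNOT7 and CREB1 lost their calls. The order of levels had 0 of 7 pairs past the threshold under every alternative, but 5 libraries cannot give an exact p under 0.0625, so leaving one out says nothing of stability; in counts scaled to the library total but not to length, LIF and IL6ST led. Genes under 10 counts a library, such as OSM and SOCS1, are beyond what this depth can compare.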
